A study of Mus musculus with 46 samples.

Results

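Sarcomere and Z-disc genes encode the contractile unit of heart muscle and the proteins that build and replace it. The set described here holds 36 genes chosen by name, all of which were found among the 55359 genes of the count table, and each name occurred there once. It was split by role into 5 thick filament genes, 7 thin filament genes, 13 Z-disc genes, 5 genes of the M-band and of creatine kinase, and 6 genes of turnover and assembly. All 36 passed the filter on low counts in both kits.

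Messenger RNA of mouse hearts was sequenced in 46 libraries, all from mice that carried Myh6MCM Tg/0 and had received tamoxifen on 4 consecutive days at 6 to 8 weeks of age. Myh6MCM is a tamoxifen-activated Cre recombinase made in cardiomyocytes, so floxed Lmna, the gene of the A-type lamins that line the nucleus, is cut in those cells and other cells of the heart keep it. In the time course, made with the NEBNext poly(A) kit, Lmna F/F hearts (transgene spelled My6MCM in their labels) were set against Lmna +/+ hearts: 4 and 5 libraries at 1 week after tamoxifen, 2 and 3 at 11 days, and 5 and 7 at 2 weeks. In a cross sampled at 2 weeks with the QuantSeq kit, which reads the 3' end of each transcript, there were 4 Lmna F/F; cGas null/null, 4 Lmna F/+; cGas null/null, 6 Lmna F/F; cGas +/+ and 6 Lmna F/+; cGas +/+ libraries. The F/+ hearts of the cross carry a floxed Lmna allele and the Cre, so the controls of the cross are not those of the time course. cGas is a sensor of cytosolic DNA, and the cross addresses whether the response to Lmna loss depends on it. Whether every library is a mouse of its own is not stated in the labels. All groups but the F/+ hearts without cGas hold libraries of both sexes, so those of such a group are not all from 1 mouse. The p-values refer to the spread among libraries, which may in part be technical.

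In the sarcomere, myosin thick filaments slide along actin thin filaments, under control of the troponins and tropomyosin that sense calcium. Z-discs anchor the thin filaments and titin, M-bands hold the thick filaments in register, and creatine kinases buffer the ATP that contraction uses. Chaperones fold new myosin, and ubiquitin ligases of the MuRF family mark worn parts for removal. In cardiomyopathy caused by LMNA mutations the myocardium contracts weakly, which is why these genes are of interest in this tissue.

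Total counts were 8477358 to 25856892 in the NEBNext kit and 22099181 to 33993289 in the QuantSeq kit. Of these counts, 4.04 to 31.7% were mitochondrially encoded in the NEBNext kit and 45.9 to 58.9% in the QuantSeq kit. Normalised CPM is the unit of level, the CPM of a library after TMM scaling, and changes are log2 fold changes from edgeR's quasi-likelihood test, with Benjamini-Hochberg adjustment over all genes tested in a kit (15627 and 14812) and a threshold of 0.05. Lmna itself was at 33.6, 35.6, 27.0 and 36.9 normalised CPM in F/F hearts of 1 week, against 67.7, 45.0, 66.8, 59.2 and 56.3 in +/+ hearts, and the groups did not overlap. At 11 days it was at 58.3 and 58.4 in libraries labelled F/F, against 106, 118 and 52.0 in those labelled +/+, so that the library labelled +/+ replicate 3 lay below both. At 2 weeks it was at 42.2, 108, 108, 82.8 and 84.9 in F/F hearts, against 105 to 125, with a median of 111, in +/+ hearts, with an adjusted p of 0.0983 by edgeR. Replicates 2 and 3 of F/F lay within the +/+ range. The 3' tags of QuantSeq say nothing about the floxed part of Lmna, since the labels do not place it: Lmna was at 16.4 to 28.6 normalised CPM in F/F and 19.2 to 25.97 in F/+ libraries of that kit. Cgas had 0.609 to 1.20 normalised CPM in F/F; cGas null/null and 0.258 to 0.819 in F/+; cGas null/null hearts, against 1.97 to 3.79 in F/F; cGas +/+ and 0.851 to 2.39 in F/+; cGas +/+ hearts. Within each Lmna genotype the cGas genotypes did not overlap. Between them edgeR called 0 of the 14812 genes tested in either Lmna genotype, so Cgas itself was not called.

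At 2 weeks, 25 of the 36 genes fell and 1 rose in Lmna F/F hearts on the TMM scale, while 5 fell and 7 rose when libraries were scaled to cardiomyocyte genes outside the sarcomere. Over all genes tested, edgeR called 13.0% lower and 16.2% higher on the TMM scale. The median log2 fold change of the 36 was -0.61, beside 0.04 over all genes. Scaling to the cardiomyocyte genes moved the median of all genes to 0.74 and that of the 36 to 0.10. The median of the 36 minus that of all genes was -0.64 on that scale and -0.65 on the TMM scale. A change of scaling shifts all genes by nearly the same amount, so this difference had to stay alike and is no second test. Scaled to cardiomyocyte genes, 129 of all genes were called lower and 10029 higher, against 2025 and 2537 with TMM. On the TMM scale 34 of the 36 had a log2 fold change below 0, and in 10 every F/F library lay below every +/+ library, beside 5.68% of all genes. For 0 of the 36 did every F/F library lie above every +/+ library, beside 6.68% of all genes.

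By role, the calls at 2 weeks were 5 of 5 M-band and creatine kinase genes, 4 of 5 thick filament genes, 6 of 7 thin filament genes, 5 of 6 turnover genes and 5 of 13 Z-disc genes lower, with 1 Z-disc gene higher. The median log2 fold changes were -0.82 for M-band and creatine kinase genes, -0.70 for thick filament, -0.53 for thin filament, -0.72 for turnover and -0.45 for Z-disc genes. Scaled to the cardiomyocyte genes, the medians were -0.12 for M-band and creatine kinase and -0.01 for both thick filament and turnover genes, and turned positive for thin filament (0.18) and Z-disc genes (0.24). The libraries of 2 weeks came from pools KIUC033 and KIUC035, and the order of the roles differed between the pools. Within KIUC035 alone, 2 of 7 thin filament and 7 of 13 Z-disc genes were lower, with medians of -0.61 and -0.75. Within KIUC033 alone the medians of these roles were -0.46 and -0.34. All these medians are descriptions and were not tested against each other.

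**Figure D1:**
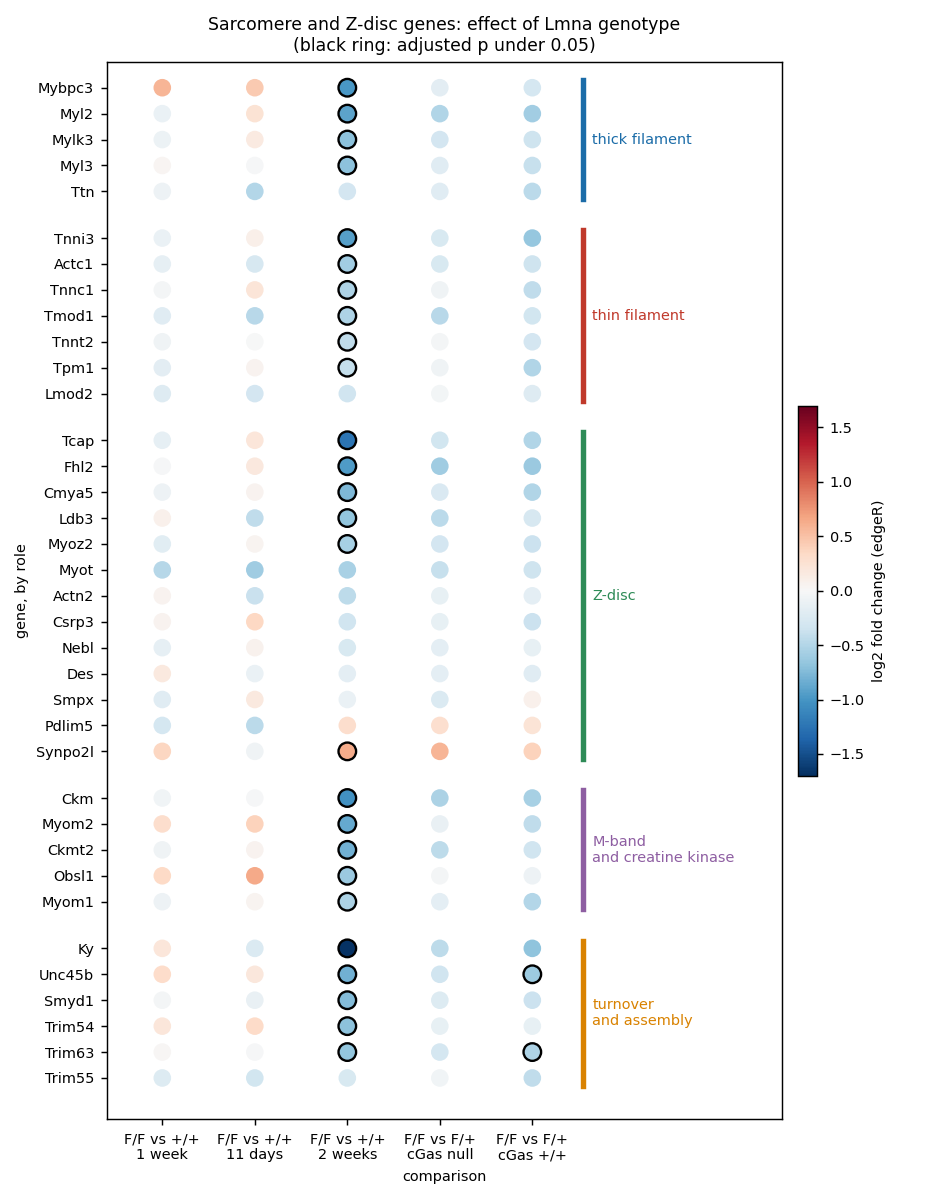
Log2 fold change (colour) of the 36 genes in 5 comparisons of Lmna genotype, by role and in order of the change at 2 weeks; a black ring marks an adjusted p under 0.05 in edgeR. On the TMM scale 26 rings stand in the column of 2 weeks, 25 for lower and 1 (Synpo2l) for higher genes, and 2 in the column of F/F against F/+ with cGas; scaled to cardiomyocyte genes outside the sarcomere, 5 genes were lower and 7 higher at 2 weeks.

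The 250 bases before the transcription starts of these genes were searched for motifs of muscle transcription factors in RefSeq promoters on GRCm38.p6, a build other than the mm39 of the counts. The table matched 32 of the 36 genes, with 43 promoters, and not Trim55, Myot, Tcap and Myom2. A MEF2 site, read by its consensus on both strands, stood in 6 of 43 (14%), from 5 of the 32 genes, beside 2.92% of all 32851 promoters. A CArG box, the site of serum response factor, likewise read on both strands, stood in 8 of 43 (18.6%), from 6 of the 32 genes, beside 1.47%. Promoters of 1 gene can overlap: the first and second of Ldb3 share 1 CArG box, which counts for both. The motif CATTCC, read on both strands, stood in 9 of 43 (20.9%), beside 12.6%, and TATAAA, on the gene's strand, in 1 of 43 (2.33%), beside 7.59%. In 0 of the 43 did matches of different motifs overlap. A match is a description of letters and not a bound site. The 120 bases before the start are printed for the 8 genes that hold a MEF2 site or a CArG box within them, at the first such start of each, with the sites in capitals; the sites of Ttn and Nebl lie farther from the start. On the TMM scale Synpo2l was called higher and the other 7 lower at 2 weeks, and Ttn and Nebl were not called. That makes 7 of these 10 genes lower, beside 25 of all 36. Scaled to cardiomyocyte genes, Synpo2l alone of these 10 was called, beside 5 lower and 7 higher of the 36. A link between the sites and the changes was not tested.
Mybpc3, chr2:91118024-91118143, plus strand, MEF2 site from 90 bases before the start: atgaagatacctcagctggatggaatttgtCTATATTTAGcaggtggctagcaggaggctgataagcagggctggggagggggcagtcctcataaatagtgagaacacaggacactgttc
Myl3, chr9:110763558-110763677, plus strand, CArG box from 85 bases before the start: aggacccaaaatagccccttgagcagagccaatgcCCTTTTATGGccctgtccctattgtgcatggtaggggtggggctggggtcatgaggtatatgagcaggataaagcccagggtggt
Actc1, chr2:114052876-114052995, minus strand, CArG box from 47 bases before the start: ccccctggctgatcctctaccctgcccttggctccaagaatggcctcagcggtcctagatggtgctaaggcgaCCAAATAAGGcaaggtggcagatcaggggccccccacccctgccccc
Fhl2, chr1:43196762-43196881, minus strand, MEF2 site from 31 bases before the start and CArG box from 96 bases before the start: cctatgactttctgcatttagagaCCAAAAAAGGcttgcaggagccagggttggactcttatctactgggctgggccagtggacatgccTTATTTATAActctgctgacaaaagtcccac
Ldb3, chr14:34588682-34588801, minus strand, CArG box from 35 bases before the start: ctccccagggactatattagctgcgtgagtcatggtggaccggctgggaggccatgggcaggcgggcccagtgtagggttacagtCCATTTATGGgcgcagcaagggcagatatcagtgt
Synpo2l, chr14:20668355-20668474, minus strand, MEF2 site from 109 bases before the start: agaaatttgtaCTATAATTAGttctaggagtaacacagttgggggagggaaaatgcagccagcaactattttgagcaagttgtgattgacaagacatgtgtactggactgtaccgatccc
Myoz2, chr3:123034988-123035107, minus strand, MEF2 site from 33 bases before the start: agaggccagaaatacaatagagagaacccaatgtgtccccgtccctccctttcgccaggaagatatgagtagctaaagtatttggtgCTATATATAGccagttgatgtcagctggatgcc
Myom1, chr17:71019437-71019556, plus strand, CArG box from 99 bases before the start: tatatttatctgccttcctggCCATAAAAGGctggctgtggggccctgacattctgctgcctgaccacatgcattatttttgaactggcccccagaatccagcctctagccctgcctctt

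Among thick filament genes, Mybpc3 (cardiac myosin-binding protein C, ENSMUSG00000002100.16) had 1787, 1559, 1029.8, 1506 and 1738 normalised CPM in F/F replicates 1 to 5, against 2634 to 3529.5, with a median of 2949.7, in the 7 +/+ libraries. Every F/F library lay below every +/+ library. The log2 fold change was -0.99 ± 0.17 (SE, edgeR adjusted p = 1.18e-04), and the exact two-sided permutation p of 0.00252 is the smallest that 5 against 7 libraries can give. Myl2, the ventricular regulatory light chain of myosin and the highest of the 36 genes per length, had 14026, 12683, 5826, 8575 and 10180.2 normalised CPM in F/F hearts, against 16829 to 22802, with a median of 20889, in +/+ hearts. Its groups did not overlap either, and it fell by a log2 fold change of -0.91 ± 0.15 (SE, edgeR adjusted p = 1.08e-04). Myl3, the essential light chain, had 5492, 5281, 4676, 6909.9 and 7244 normalised CPM in F/F hearts, against 6453 to 12334, with a median of 7761, in +/+ hearts. Here F/F replicates 4 and 5 lay among the +/+ libraries, and the log2 fold change was -0.69 ± 0.15 (SE, edgeR adjusted p = 0.0014); scaled to cardiomyocyte genes it was 0.00. Mylk3, the cardiac kinase that phosphorylates the regulatory light chain, averaged 339 ± 67.9 normalised CPM in F/F and 542 ± 118 in +/+ hearts (SD), with a log2 fold change of -0.70 ± 0.19 (SE, edgeR adjusted p = 0.00784). Ttn, the giant spring that spans the sarcomere from Z-disc to M-band, did not pass. It had 3372, 1897, 739, 1285 and 1078 normalised CPM in F/F hearts, against 1309.6 to 3262, with a median of 2677, in +/+ hearts, so that F/F replicate 1 lay above all 7 +/+ libraries while replicates 3, 4 and 5 lay below them all. Its log2 fold change was -0.31 ± 0.21 (SE, edgeR adjusted p = 0.28).

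The thin filament genes covered a narrower range, from -0.94 to -0.34 on the log2 scale after TMM scaling. Tnni3, the inhibitory subunit of cardiac troponin, was at its lower end, with 7940.3, 6541, 2956, 4824 and 5481 normalised CPM in F/F hearts, against 9005 to 12479.5, with a median of 12310.1, in +/+ hearts. Every F/F library lay below every +/+ library, and the log2 fold change was -0.94 ± 0.15 (SE, edgeR adjusted p = 6.13e-05). Actc1, cardiac actin, had 11731, 13146, 11655, 15804 and 14621 normalised CPM in F/F hearts, against 14443 to 24495, with a median of 18303, in +/+ hearts. F/F replicates 4 and 5 lay above the lowest +/+ library, and the log2 fold change was -0.59 ± 0.16 (SE, edgeR adjusted p = 0.00769). The calcium-binding subunit Tnnc1 had a log2 fold change of -0.53 ± 0.13, the tropomyosin-binding subunit Tnnt2 -0.43 ± 0.11 and tropomyosin Tpm1 -0.40 ± 0.12 (SE; edgeR adjusted p from 0.00367 to 0.0115), so that Tnni3 had the most negative value of the 3 troponin subunits. Tnnt2 averaged 11134 ± 1347 normalised CPM in F/F and 14788 ± 1592 in +/+ hearts (SD) without overlap between the groups. Of the proteins that cap or extend the pointed end of actin, Tmod1 fell by a log2 fold change of -0.53 ± 0.16 (SE, edgeR adjusted p = 0.0134), and Lmod2 missed the threshold. Lmod2 had 648, 435, 331, 373 and 408 normalised CPM in F/F hearts, against 452 to 784, with a median of 628, in +/+ hearts. Its F/F replicate 1 lay above the +/+ median and the other 4 below every +/+ library, with a log2 fold change of -0.34 ± 0.15 (SE, edgeR adjusted p = 0.102).

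Z-disc genes were the most mixed role, from -1.24 to 0.63 on the log2 scale. Tcap, which caps the end of titin (ENSMUSG00000007877.3), had 1383, 844, 285, 597 and 708 normalised CPM in F/F hearts, against 1270.4 to 2704, with a median of 2325, in +/+ hearts. Of the F/F libraries replicate 1 alone reached into the +/+ range, and the log2 fold change of -1.24 ± 0.20 (SE, edgeR adjusted p = 8.68e-05) was the second most negative of the 36. Fhl2, a LIM-domain protein that binds titin and transcription factors, had 2014, 1812, 789, 1537 and 1493 normalised CPM in F/F hearts, against 2358 to 4389, with a median of 2929, in +/+ hearts. Its groups did not overlap, and the log2 fold change was -0.96 ± 0.19 (SE, edgeR adjusted p = 5.54e-04). Cmya5 (myospryn), Ldb3 (cypher) and Myoz2 (calsarcin) fell by log2 fold changes of -0.76 ± 0.23, -0.66 ± 0.21 and -0.57 ± 0.15 (SE, edgeR adjusted p at most 0.0166). Synpo2l, an actin-bundling protein of the Z-disc (ENSMUSG00000039376.14), was the 1 gene of the 36 that rose. It had 101, 112, 198, 103 and 139 normalised CPM in F/F hearts, against 49.7 to 160.0, with a median of 71.4, in +/+ hearts; all 5 F/F libraries lay above 6 of the 7 +/+ libraries, and +/+ replicate 6 lay above 4 of them. Its log2 fold change was 0.63 ± 0.19 (SE, edgeR adjusted p = 0.0134), with an exact permutation p of 0.053. Without +/+ replicate 6 the log2 fold change was 0.94; without F/F replicate 2 or 3 or +/+ replicate 7 it was no longer called.

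The other 7 Z-disc genes did not pass at 2 weeks. Pdlim5, a PDZ and LIM scaffold, averaged 554 ± 52.4 normalised CPM in F/F and 429 ± 76.3 in +/+ hearts (SD), a log2 fold change of 0.30 ± 0.14 (SE, edgeR adjusted p = 0.114). Actn2, the sarcomeric alpha-actinin that crosslinks actin at the Z-disc, had a log2 fold change of -0.45 ± 0.19 (SE, edgeR adjusted p = 0.078). Those of Csrp3 (muscle LIM protein), Myot (myotilin), Nebl (nebulette) and Des (desmin, the intermediate filament around the Z-disc) were -0.34 ± 0.18, -0.55 ± 0.27, -0.27 ± 0.24 and -0.16 ± 0.12 (SE, edgeR adjusted p from 0.124 to 0.406). Smpx had the value closest to 0 of all 36, with 414, 373, 251, 261 and 309 normalised CPM in F/F hearts, against 297 to 489, with a median of 348, in +/+ hearts. Of the 5 F/F libraries 3 lay inside the +/+ range, and the 95% interval of its log2 fold change was -0.43 to 0.20.

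**Figure D2:**
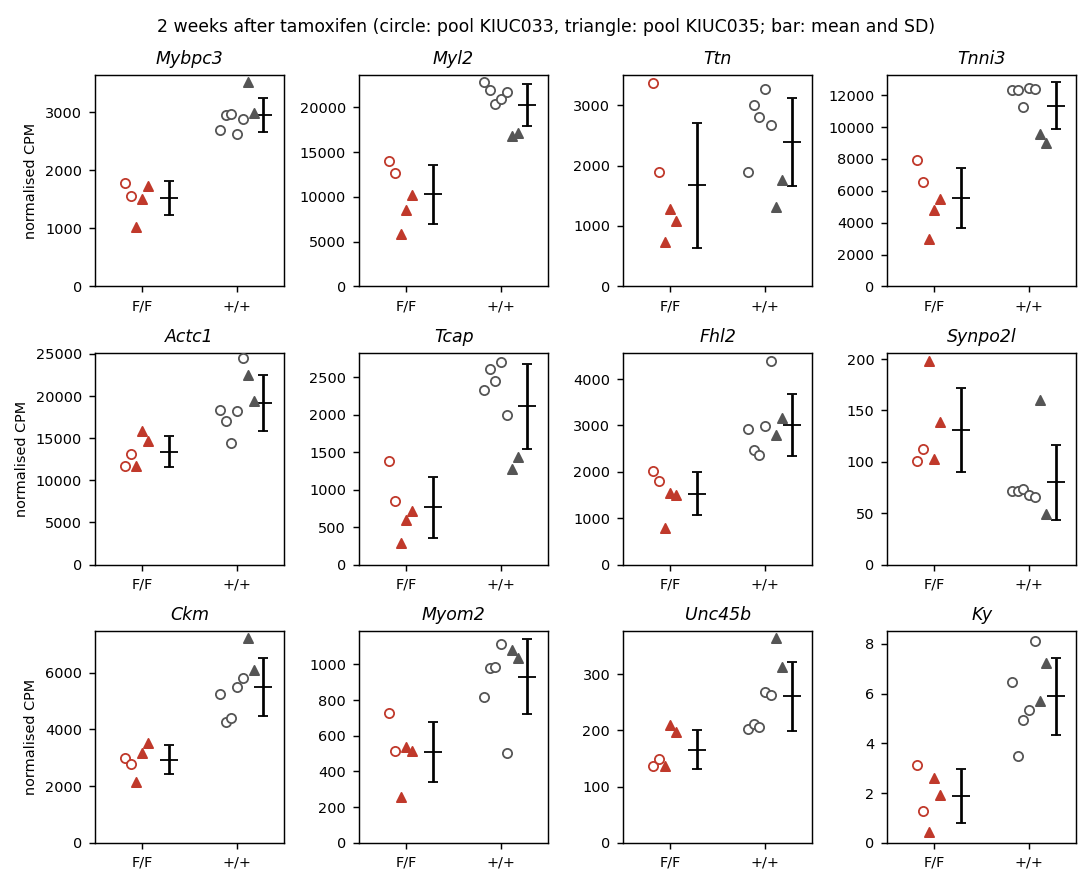
Normalised CPM of 12 genes in each library of 2 weeks, F/F left and +/+ right, with open circles for pool KIUC033, filled triangles for pool KIUC035 and bars for mean and SD. F/F libraries lie below all +/+ libraries for Mybpc3, Myl2, Tnni3, Fhl2, Ckm and Ky, and all 5 lie above 6 of 7 +/+ libraries for Synpo2l; scaled to cardiomyocyte genes, Actc1 and Ttn change sign.

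All 5 genes of the M-band and of creatine kinase fell at 2 weeks on the TMM scale, while scaled to cardiomyocyte genes 1 of them, Ckm, was called lower and the values of Myom1 and Obsl1 were above 0. Ckm, the cytosolic muscle creatine kinase, had 2989.5, 2787, 2155, 3181 and 3525 normalised CPM in F/F hearts, against 4250.3 to 7214, with a median of 5473, in +/+ hearts. The groups did not overlap, and the log2 fold change was -1.03 ± 0.16 (SE, edgeR adjusted p = 6.57e-05). Its mitochondrial counterpart Ckmt2 had 2730.3, 2562, 1811, 2369 and 2418 normalised CPM in F/F hearts, against 3829 to 4826, with a median of 4100.2, in +/+ hearts, again without overlap (log2 fold change -0.82 ± 0.16, SE, edgeR adjusted p = 4.59e-04). Myom2, a myomesin that crosslinks myosin at the M-band, had 729, 512, 254, 535 and 513 normalised CPM in F/F hearts, against 505 to 1115, with a median of 987, in +/+ hearts. It overlapped through +/+ replicate 5, which lay below 4 of the 5 F/F libraries, and had a log2 fold change of -0.88 ± 0.25 (SE, edgeR adjusted p = 0.00961). Myom1, the other myomesin, had 983, 786, 568, 836 and 804 normalised CPM in F/F hearts, against 824 to 1305, with a median of 1178, in +/+ hearts. F/F replicates 1 and 4 lay above +/+ replicate 1, and the log2 fold change was -0.54 ± 0.16 (SE, edgeR adjusted p = 0.0129). Obsl1, a titin-binding relative of obscurin, had 27.0, 29.6, 35.8, 31.1 and 40.4 normalised CPM in F/F hearts, against 38.2 to 61.3, with a median of 43.1, in +/+ hearts. F/F replicate 5 alone lay inside the +/+ range, and the log2 fold change was -0.63 ± 0.16 (SE, edgeR adjusted p = 0.00458).

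Of the turnover and assembly genes, Ky, a protease of the Z-disc whose loss causes kyphoscoliosis in mice (ENSMUSG00000035606.9), had the most negative change of the 36. It was the gene of lowest level, with 3.14, 1.26, 0.422, 2.62 and 1.93 normalised CPM in F/F hearts, against 3.48 to 8.14, with a median of 5.69, in +/+ hearts. The groups did not overlap, and the log2 fold change was -1.68 ± 0.31 (SE, edgeR adjusted p = 3.30e-04). Unc45b, the chaperone that folds the myosin head, had 137, 148, 136, 209 and 197 normalised CPM in F/F hearts, against 202 to 365, with a median of 262, in +/+ hearts. F/F replicate 4 lay above 2 of the +/+ libraries, and the log2 fold change was -0.82 ± 0.15 (SE, edgeR adjusted p = 3.45e-04). Smyd1, a methyltransferase needed for myofibril assembly, averaged 347 ± 71.2 normalised CPM in F/F and 598 ± 85.9 in +/+ hearts (SD) without overlap, a log2 fold change of -0.74 ± 0.17 (SE, edgeR adjusted p = 0.00165). Of the MuRF ubiquitin ligases, Trim54 had 124, 128, 109.9, 113 and 139.9 normalised CPM in F/F hearts, against 168 to 239.9, with a median of 185, in +/+ hearts. It did not overlap, and fell by a log2 fold change of -0.69 ± 0.14 (SE, edgeR adjusted p = 8.92e-04). Trim63, a marker of muscle wasting in skeletal muscle, had a log2 fold change of -0.68 ± 0.18 (SE, edgeR adjusted p = 0.00558), in the same direction as most structural genes. Trim55 did not pass, with 63.4, 58.8, 51.1, 52.0 and 77.6 normalised CPM in F/F hearts, against 48.8 to 93.7, with a median of 64.6, in +/+ hearts. All 5 F/F libraries lay inside the +/+ range, and the log2 fold change was -0.28 ± 0.25 (SE, edgeR adjusted p = 0.437).

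Per length, on the deposited TPM of the NEBNext libraries, the order of the 36 genes spanned from Myl2, at 23696 ± 4316 TPM in F/F and 36992 ± 2924 TPM in +/+ hearts of 2 weeks, to Ky, at 0.655 ± 0.35 and 1.66 ± 0.481 TPM (SD, n = 5 and 7). In F/F hearts Myl2 overlapped the next gene, Tnnt2 at 19698 ± 2951 TPM, while in +/+ hearts every library held more Myl2 than any held of the next gene, Actc1 at 21338 ± 4300.2 TPM. The ranges of neighbours in this order overlapped in 28 of 35 pairs in F/F and 30 of 35 in +/+ hearts. Ranges were taken over libraries, and neighbours were not compared within each library, so an overlap does not show that 2 genes are alike. Tnni3 stood in place 6 in F/F hearts at 12459 ± 2446 TPM and in place 3 in +/+ hearts at 20171 ± 1575 TPM. Synpo2l stood in place 29 in F/F hearts at 65.6 ± 30.1 TPM and in place 33 in +/+ hearts at 29.99 ± 15.15 TPM. By limma-trend on log2(TPM + 1), with the same terms, 14 of the 36 genes were lower and 2, Synpo2l and Pdlim5, higher at 2 weeks; 1 of the 7 thin filament genes was called there, against 6 on the counts. On that scale 705 of all genes were called lower and 5253 higher, the median of all genes was 0.21, and the median of the 36 was -0.29.

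The 36 genes together took 14.4, 14.4, 11.3, 14.2 and 14.2% of the counts that are not mitochondrially encoded in F/F hearts of 2 weeks, against 16.5 to 19.2% in +/+ hearts. Every F/F library was below every +/+ library, and replicate 3 was lowest. At 1 week the share was 18.8 ± 0.98% in F/F and 19.2 ± 0.99% in +/+ hearts (SD, n = 4 and 5), and at 11 days 21.1% in both libraries labelled F/F and 19.5 to 21.4% in the 3 labelled +/+. Among the F/F libraries, replicate 3 held the lowest value for 29 of the 36 genes and replicate 1 the highest for 19. Below every +/+ library were 20, 23, 31, 22 and 24 of the 36 genes in F/F replicates 1 to 5, beside 22.4, 21.0, 27.9, 23.2 and 21.8% of all genes tested. Each of the 12 fits that left out 1 library called 22 to 28 genes lower, and 20 of the 26 called genes were called in all 12. The remaining 6 were Cmya5, Ldb3, Myom1, Myoz2, Synpo2l and Tmod1. F/F replicates 1 and 2 were sequenced in pool KIUC033 with 5 +/+ libraries, and replicates 3 to 5 in pool KIUC035 with 2. Within KIUC033 alone 8 genes were called lower and 1 higher, with a median of -0.40, beside 145 lower and 204 higher of all genes. Within KIUC035 alone 24 were lower and 1 higher, with a median of -0.81, beside 2143 lower and 2751 higher of all genes.

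**Figure D3:**
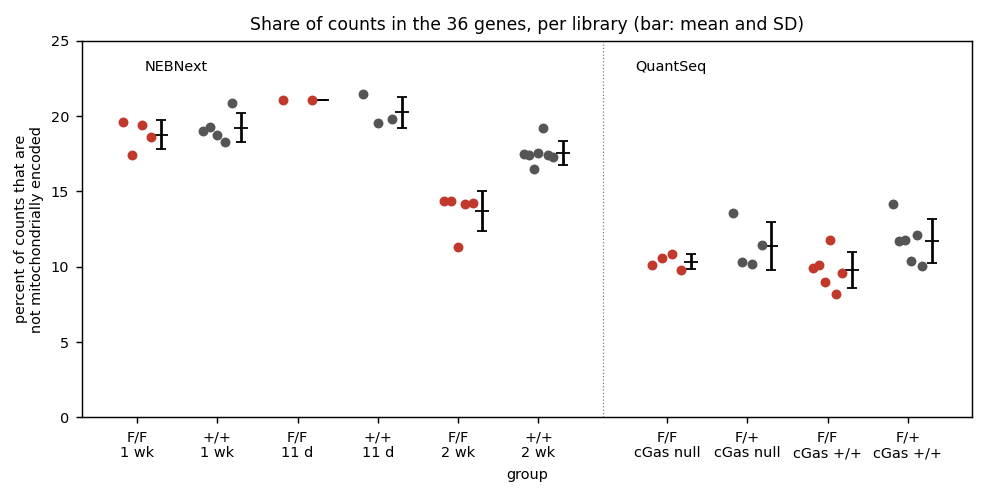
Share of counts, in percent of those not mitochondrially encoded, that fell on the 36 genes in each library, with mean and SD; kits are shown apart because their shares are not comparable. At 2 weeks the 5 F/F libraries of the time course lie between 11.3 and 14.4%, all below the +/+ libraries at 16.5 to 19.2%.

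Markers of other cell types moved with the genotype at 2 weeks, here on the TMM scale, where 13.0% of all genes were called lower and 16.2% higher. Of 25 macrophage markers edgeR called 24 higher in F/F hearts, and their summed level was 1155 to 5220 normalised CPM in F/F and 649 to 981 in +/+ libraries. Of 20 fibroblast markers 15 were higher and 1 lower, with sums of 4321 to 10380 in F/F and 3428 to 5539 in +/+ libraries. Of 32 cardiomyocyte genes outside the sarcomere 17 were lower and 0 higher, with sums of 22784 to 43808 in F/F and 48317 to 58470 in +/+ libraries. Of 18 endothelial markers 4 were lower and 0 higher (sums 1705 to 3532 in F/F and 2073 to 3762 in +/+), of 12 smooth muscle and pericyte markers 2 lower and 1 higher (624 to 1056 and 846 to 1093), and of 10 atrial genes 1 higher (467 to 3286 and 351 to 1357). Skeletal muscle markers, of which 9 of 16 were under 1 normalised CPM in every library, gave 0 calls, with sums of 79.9 to 142 in F/F and 63.0 to 141 in +/+ libraries. Scaled to the summed counts of those 32 cardiomyocyte genes, 11 of the 32 were called higher and 0 lower, with a median of 0.21, so that the median of the 36, 0.10 on that scale, lay below that of the genes used for scaling. On the same scale 25 macrophage, 19 fibroblast, 5 endothelial, 6 smooth muscle and pericyte, 5 skeletal muscle and 2 atrial markers were called higher and 0 of each lower. Of all 15627 genes tested, 10029 were called higher and 129 lower on that scale. Among these lists, macrophage and fibroblast markers alone were called higher more often than all genes. No marker of these lists was at 0 in every library of 2 weeks. In whole hearts, fewer cardiomyocytes and less RNA per cardiomyocyte cannot be told apart, and the part of the other cell types in the values of the 36 genes was not tested.

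Other genes of the sarcomere, outside the 36, give the surroundings. Of 53 such genes 52 were tested at 2 weeks. On the TMM scale 12 fell and 8 rose, with a median of -0.24, beside 13.0% lower and 16.2% higher of all genes. Scaled to cardiomyocyte genes, where 129 of 15627 genes were called lower and 10029 higher, 2 of the 52 fell and 26 rose. Their median was then 0.48, beside 0.74 over all genes. The 5 most negative called changes were those of Myh7b, a slow-type myosin heavy chain (-1.38), Asb2, a ubiquitin ligase subunit (-1.20), Fhod3, a formin of cardiac thin filaments (-0.90), Itgb1bp2, known as melusin (-0.89), and Myh6, the adult cardiac myosin heavy chain (-0.86, all log2 fold changes on the TMM scale). Myh6, whose promoter sequence also drives the transgene, averaged 7416 ± 2279.5 normalised CPM in F/F and 13355 ± 2681 in +/+ hearts (SD). The 5 most positive were those of Myoz1, a calsarcin of fast muscle (2.28), Ankrd2 (2.17) and Ankrd1 (1.62), ankyrin-repeat proteins of stretched muscle, Fhl1, a LIM-domain relative of Fhl2 (1.64), and Actn1, the alpha-actinin of non-muscle cells (1.12).

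At 1 week 0 of the 36 genes were called by edgeR, beside 0.0192% of all genes called lower and 0.0064% higher, and their median log2 fold change was -0.07. DESeq2 also called 0 of the 36. At an unadjusted p under 0.05 there was 1, Mybpc3, which had 1884, 1819.8, 1906 and 1189 normalised CPM in F/F hearts, against 1135, 1002, 1244, 1321 and 1024 in +/+ hearts. Its F/F replicates 1 to 3 lay above all +/+ libraries and replicate 4 inside their range (log2 fold change 0.58 ± 0.18, SE, edgeR adjusted p = 0.345). Ky had 8.44, 8.95, 9.76 and 12.8 normalised CPM in F/F hearts, against 6.82, 8.57, 9.71, 7.42 and 11.3 in +/+ hearts of 1 week. Tcap had 1880.2, 1767, 1889 and 1809 in F/F hearts, against 1641, 1666, 2424, 2466 and 2073 in +/+ hearts, and the groups of both genes overlapped. For 0 of the 36 did the groups separate at 1 week, beside 1.03% of all genes for lower and 1.7% for higher. At 11 days edgeR called 0 of the 36 genes, beside 0.0% of all genes in either direction, DESeq2 called 0 of the 36, and 2 had an unadjusted p under 0.05. Their median was 0.04, and the largest value was that of Obsl1 (0.64 ± 0.23, SE, edgeR adjusted p = 0.476). Libraries labelled F/F lay below all those labelled +/+ for Ttn, Tmod1, Pdlim5 and Actc1 and above them for Obsl1, 4 and 1 of the 36, beside 11.0% and 7.04% of all genes. Between 2 and 3 libraries no permutation p below 0.2 is possible. Without the library labelled +/+ replicate 1, 1 gene, Csrp3, was called higher.

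The difference between the genotype effects at 2 weeks and at 1 week was tested in the same fit, since the level itself cannot be compared between times that were sequenced in different pools. It was called negative for 13 of the 36 genes and positive for 0, beside 5.88% and 6.52% of all genes, with a median of -0.56 and 33 values below 0. Scaled to cardiomyocyte genes outside the sarcomere, 2 were negative and 2 positive. The 13 were 3 of 5 thick filament genes (Mybpc3, Myl2, Myl3), 1 of 7 thin filament genes (Tnni3), 2 of 13 Z-disc genes (Tcap, Fhl2), 4 of 5 M-band and creatine kinase genes (Myom2, Obsl1, Ckm, Ckmt2) and 3 of 6 turnover genes (Ky, Unc45b, Trim54). The most negative differences were those of Ky, -1.88 ± 0.45, and Mybpc3, -1.57 ± 0.24 (SE on the log2 scale, edgeR adjusted p = 0.00876 and 0.00115). Mybpc3 combined the highest value of the 36 at 1 week with one of the most negative at 2 weeks. Those of Myom2, Unc45b, Tcap, Obsl1, Ckm, Fhl2 and Trim54 lay between -1.17 and -0.90, and those of Tnni3, Myl2, Ckmt2 and Myl3 between -0.83 and -0.72. Smyd1 (-0.70 ± 0.24, SE, edgeR adjusted p = 0.0569) and Pdlim5 (0.60 ± 0.21, SE, edgeR adjusted p = 0.0602) just missed the threshold. For Ttn the difference was -0.21 ± 0.31 (SE, edgeR adjusted p = 0.683). The count was 8 without F/F replicate 2 of 2 weeks and 8 without +/+ replicate 6 of 2 weeks, and up to 16 without other libraries.

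**Figure D4:**
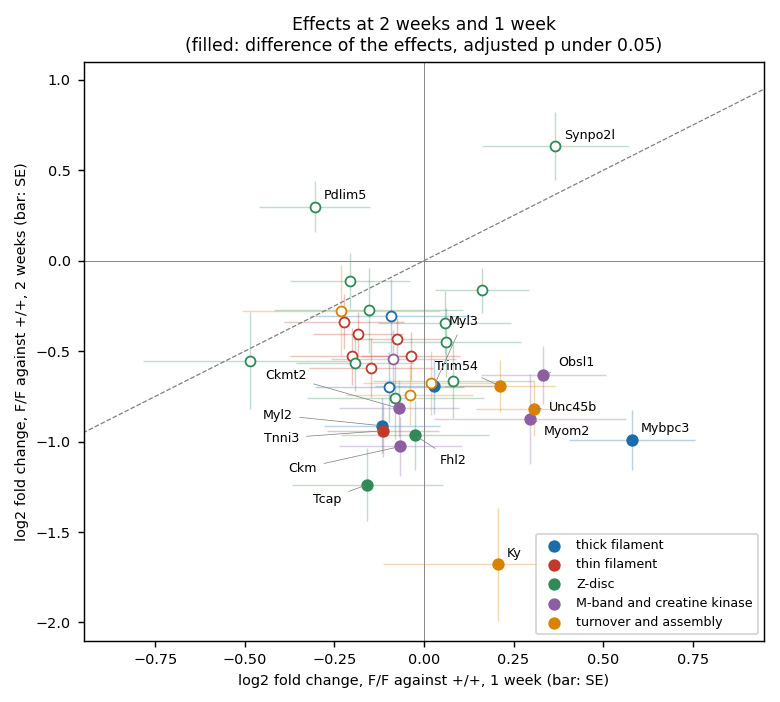
Log2 fold change of F/F against +/+ hearts at 1 week (horizontal) and 2 weeks (vertical), with SE bars and the line of equality dashed; colours give the role and filled points the 13 genes whose difference of effects passed an adjusted p of 0.05. Most points lie near 0 at 1 week and below 0 at 2 weeks on the TMM scale; scaled to cardiomyocyte genes, 2 differences were called negative and 2 positive.

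In the cross, where F/F hearts were set against F/+ hearts with cGas, 2 of the 36 genes fell and 0 rose on the TMM scale, beside 0.891% and 3.74% of all genes; scaled to cardiomyocyte genes outside the sarcomere 0 were called in either direction. The median was -0.36, beside -0.01 over all genes, and 33 of 36 values were below 0. In 0 of the 36 did the groups separate, beside 0.682% of all genes for lower and 2.39% for higher. Both called genes belong to turnover and assembly. Unc45b had 20.6 to 33.8 normalised CPM in F/F; cGas +/+ hearts (median 28.4), against 32.9 to 59.8 (median 39.6) in F/+; cGas +/+ hearts. The groups overlapped by the highest F/F and the lowest F/+ libraries, and the log2 fold change was -0.62 ± 0.15 (SE, edgeR adjusted p = 0.0204). Trim63 had 121 to 156, with a median of 122, normalised CPM in F/F; cGas +/+ hearts, against 147 to 224, with a median of 197, in F/+; cGas +/+ hearts, with F/F replicate 4 above 1 F/+ library. Its log2 fold change was -0.53 ± 0.15 (SE, edgeR adjusted p = 0.0439). Of the 12 fits that left out 1 library, Trim63 was called in 3, with adjusted p from 0.0212 to 0.175, and Unc45b in 8, with adjusted p from 0.00916 to 0.112, both by edgeR. Leaving out 1 library moved the count of genes lower between 0 and 8. It was 8 without F/F replicate 4, which was the highest of its group for 23 of the 36 genes, 0 without F/F replicate 1 or 5 or F/+ replicate 1 or 3, and 1 without F/F replicate 3 or 6 or F/+ replicate 2 or 5.

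Genes that led at 2 weeks in the time course, picked by their change there, had smaller and uncalled values in the cross. Ky had 0.992 to 3.31, with a median of 1.75, normalised CPM in F/F; cGas +/+ hearts, against 1.69 to 3.55, with a median of 3.03, in F/+; cGas +/+ hearts (log2 fold change -0.69 ± 0.26, SE, edgeR adjusted p = 0.135). Tcap had 541 to 833, with a median of 671, in F/F; cGas +/+ hearts, against 770.3 to 1154, with a median of 1077, in F/+; cGas +/+ hearts (-0.52 ± 0.16, SE, edgeR adjusted p = 0.0767). The values of Tnni3, Fhl2, Myl2 and Ckm were -0.66 ± 0.27, -0.63 ± 0.24, -0.60 ± 0.31 and -0.57 ± 0.21 (SE on the log2 scale), with edgeR adjusted p of 0.129 or more, and Mybpc3 was at -0.30 ± 0.18 (SE), or 0.046 when scaled to cardiomyocyte genes. Synpo2l was at 0.40 ± 0.23 (SE, edgeR adjusted p = 0.369). The kits, the control genotype and the pools all differ between the 2 experiments. A difference in size between the experiments cannot be told apart from these or from the choice of genes, and was not tested. Of 25 macrophage markers 20 were higher with cGas, with sums of 832 to 2108 normalised CPM in F/F and 491 to 642 in F/+ libraries. Of 32 cardiomyocyte genes outside the sarcomere 1 was lower, with sums of 19117 to 30393 in F/F and 24107 to 40510 in F/+ libraries. Of 20 fibroblast markers 5 were higher, with sums of 2215 to 3965 in F/F and 1679 to 3532 in F/+ libraries. The part of these cells in the values of the 36 genes was not tested.

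Without cGas, edgeR called 0 of the 36 genes between F/F and F/+ hearts, beside 0.027% of all genes lower and 0.5% higher, and DESeq2 called 0 of the 36. The median was -0.22, beside -0.02 over all genes, 34 of 36 values were below 0, and 1 gene had an unadjusted p under 0.05. That gene was Tmod1, which had 78.1, 80.4, 83.7 and 95.02 normalised CPM in F/F; cGas null/null hearts, against 119.8, 121, 108 and 111 in F/+; cGas null/null hearts (log2 fold change -0.47 ± 0.18, SE, edgeR adjusted p = 0.307). In 4 of the 36, Tmod1, Unc45b, Des and Myom1, every F/F library lay below every F/+ library, beside 2.23% of all genes, and for 0 was every one above, beside 3.21%. Unc45b had 28.4, 32.5, 35.3 and 37.8 normalised CPM in F/F; cGas null/null hearts, against 43.1, 48.4, 40.7 and 41.6 in F/+; cGas null/null hearts (-0.33 ± 0.20, SE, edgeR adjusted p = 0.62). The values of Fhl2, Ckm and Ky were -0.60 ± 0.32, -0.53 ± 0.27 and -0.45 ± 0.32, those of Tcap and Trim63 -0.32 ± 0.22 and -0.29 ± 0.20, and that of Synpo2l 0.57 ± 0.29 (SE on the log2 scale), each uncalled. The F/+; cGas null/null libraries were all from male mice, and sex was a term of the fit. Fitted with only the libraries compared, the median of the 36 was -0.37 without cGas and -0.38 with cGas. Replicate 1 of F/+; cGas null/null had 18393 normalised CPM of Myl2, against 5262 to 5647 in the other 3. Macrophage markers were called higher for 4 of 25, with sums of 551 to 1188 normalised CPM in F/F and 451 to 741 in F/+ libraries. The median log2 fold change of the macrophage markers was 0.99, beside 1.15 with cGas. The difference between these effects was called for 0 of the 25.

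The difference between the genotype effects without and with cGas was called for 0 of the 36 genes by edgeR and by DESeq2, beside 0.0% of all genes, and 0 had an unadjusted p under 0.05. The differences ran from -0.33 for Smpx to 0.44 for Tpm1, with a median of 0.13 and SE of 0.23 to 0.53. That median was 0.06 without the sex term, and 0.02 to 0.23 when 1 library was left out. For Unc45b the difference was 0.29 ± 0.25 (SE), with a 95% interval of -0.23 to 0.80, and for Trim63 0.23 ± 0.25 (SE), with a 95% interval of -0.29 to 0.75. Each interval includes 0 and also differences as large as the effect with cGas itself, so at this depth and number of libraries it is not shown that the effects differ or that they are alike. Between cGas null and cGas +/+ hearts, 0 genes were called among F/F hearts, with a median of 0.10, and 0 among F/+ hearts, with a median of -0.05, beside 0.0% of all genes in both. The cGas genotypes separated in 0 of the 36, beside 0.412% of all genes lower and 0.655% higher among F/F hearts and 0.466% lower and 0.317% higher among F/+ hearts. DESeq2 called 0 of the 36 in either, and 0 had an unadjusted p under 0.05.

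**Figure D5:**
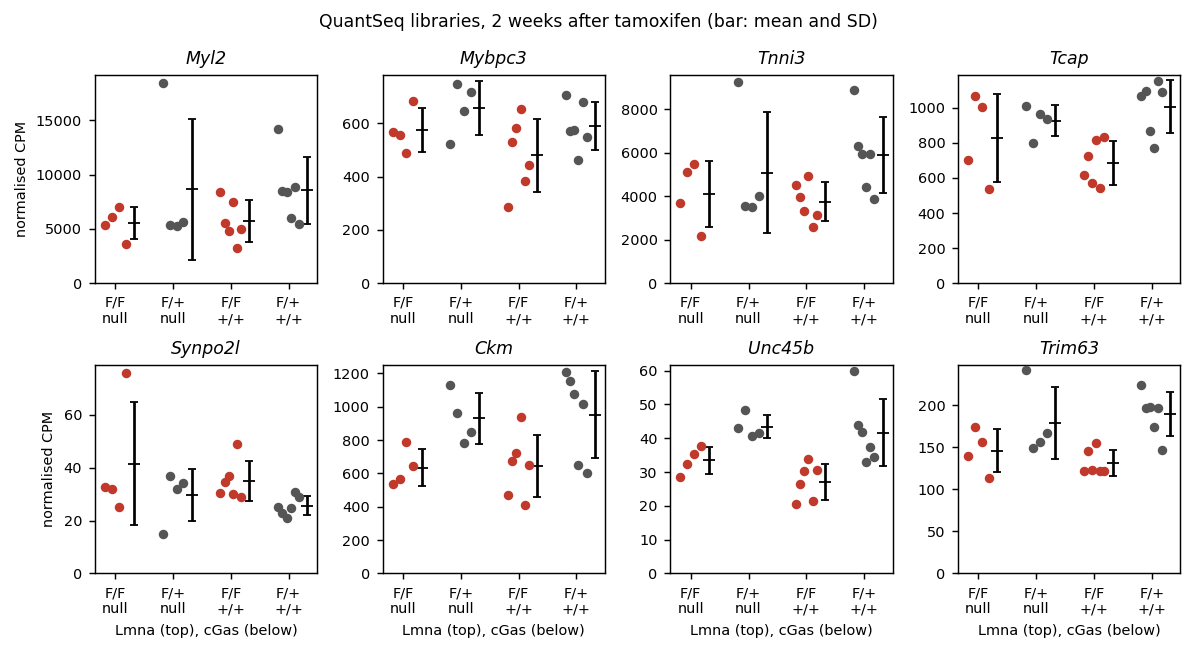
Normalised CPM of 8 genes in the QuantSeq libraries of 2 weeks, by Lmna genotype and cGas genotype, with mean and SD. F/F libraries (red) overlap F/+ libraries (grey) in every panel with cGas +/+; without cGas, those of Unc45b lie at 28.4 to 37.8 in F/F, below 40.7 to 48.4 in F/+ libraries.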

How the data were processed

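The authors deposited a table of raw counts per gene for 46 libraries, with STAR 2.7.9 and the mm39 build named, per the submitters' processing notes; the sources used here do not give the counting tool, annotation or strand. Overlapping genes therefore cannot be told apart from antisense reads. In a second table the authors deposited TPM for the 26 NEBNext libraries and CPM for the 20 QuantSeq libraries; the 20 columns equal the CPM of the counts within 0.01, and 0 of the 26 do. Levels between genes were compared on TPM only.

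Counts were fitted per kit in edgeR 4.0.16 (R 4.3.3) by the quasi-likelihood test with TMM scaling and filterByExpr (minimum count 10, total 15). The terms were group, sex and, for NEBNext, pool KIUC035 within 2 weeks. SEs and 95% intervals come from these fits. Alternatives used DESeq2 1.42.0 and limma 3.58.1, the latter on log2(value + 1) or log2(value + 0.1). Exact two-sided permutation tests used SciPy 1.17.1, and tables were joined with pandas 2.3.3 in Python 3.11.15. On simulated counts the fit recovered 93 of 100 genes changed by 1 on the log2 scale at 2 weeks and 91 of 100 in F/F against F/+ with cGas, among 15059 and 14585 genes. It also called 7 and 9 unchanged genes. The changed genes were as many up as down, were drawn above a floor of mean level, and were far fewer than those called at 2 weeks. No effect of sex, pool or cell mixture was simulated, so these counts are not rates for the real data. Changes smaller than 1, such as the median of -0.36 of the 36 with cGas, were not simulated.

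Replicate numbers follow the order of deposit. None of 93 pairs of libraries within a group was identical. Members, lists and roles were chosen with earlier results of these data known. Values in every library are given for the 2 genes of largest and the 1 of smallest change at 2 weeks in each role, for a gene called against its role, and for those called in an interaction or a cGas comparison. Promoter sequences are RefSeq's on GRCm38.p6.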

Additional observations from a re-analysis of the deposited data

Results flagged for a closer look

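Among the 20 genes with values in every library, 14 of 160 group values had 1 library far from the rest of its group. The mark is a gap from the highest or lowest library to its nearest neighbour, as a share of the group's range, above Dixon's 95% critical value. By construction, chance sets it in about 1 in 20 groups. It was applied to the 8 groups of 4 to 7 libraries, and not to the groups of 11 days, which have 2 and 3. In F/F hearts of 1 week these were Mybpc3 in replicate 4, low at 1189 normalised CPM, and Trim55 in replicate 1, high at 101.6. In +/+ hearts of 1 week it was Ckm in replicate 1, at 5483. In +/+ hearts of 2 weeks, replicate 6 was high for Mybpc3 (3529.5 normalised CPM), Synpo2l (160.0) and Trim54 (239.9), replicate 5 for Fhl2 (4389) and replicate 1 low for Myom1 (824). In F/F; cGas null/null hearts, replicate 4 was high for Synpo2l (75.8) and stood apart for Obsl1 (4.10). In F/+; cGas null/null hearts, replicate 1 was high for Myl2 (18393) and Tnni3 (9235). In F/+; cGas +/+ hearts, Ky stood apart in replicate 4 (1.69) and Trim55 in replicate 1 (17.4).

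The genotype effect at 2 weeks differed from that at 1 week by the interaction test in 13 genes. The differences, on the log2 scale, were -1.88 for Ky, -1.57 for Mybpc3, -1.17 for Myom2, -1.13 for Unc45b, -1.08 for Tcap, -0.97 for Obsl1, -0.96 for Ckm, -0.94 for Fhl2, -0.90 for Trim54, -0.83 for Tnni3, -0.79 for Myl2, -0.75 for Ckmt2 and -0.72 for Myl3.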

How the results depend on the processing

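No paired analysis was possible because replicate numbers follow the order of deposit and pair no libraries. At 2 weeks the count of genes lower, 25 on the TMM scale, was 14 and 11 by limma on TPM with a pseudocount of 1 and 0.1. It was 5 when scaled to cardiomyocyte genes and 8 within pool KIUC033, where 145 of all genes were called lower. The count higher was 2 by limma with either pseudocount and 7 when scaled to cardiomyocyte genes. Leaving out 1 library gave 22 to 28 lower and 0 to 2 higher; Pdlim5 joined without +/+ replicate 5, and Synpo2l was lost without F/F replicate 2 or 3 or +/+ replicate 7. The median of thick filament genes was -0.91 when Ttn, Mylk3, Cmya5, Des and Ckmt2, whose role could be argued, were left out. That of M-band and creatine kinase genes was then -0.75, against -0.82 with all 5 genes. The most negative role thus depended on these assignments. At 11 days leaving out 1 library gave 0 to 1 gene higher.

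For the difference between 2 weeks and 1 week, leaving out 1 library gave 8 to 16 negative and 0 to 1 positive genes. Scaled to cardiomyocyte genes 2 were negative and 2 positive, and DESeq2 and limma with a pseudocount of 1 each called 1 positive. For F/F against F/+ with cGas, limma called 0 with either pseudocount, scaling to cardiomyocyte genes left 0, a fit of those libraries alone gave 4, and leaving out 1 library gave 0 to 8. The other counts stayed within 1.5 times their value in each alternative run.

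Signs turned, mostly when libraries were scaled to cardiomyocyte genes, where the median of all genes was 0.74 at 2 weeks, 0.13 at 1 week, -0.18 at 11 days, 0.61 for the difference between times, 0.33 with cGas and 0.30 without. The log2 fold changes at 2 weeks were then 0.12 for Actc1, 0.27 for Tnnt2, 0.18 for Tnnc1, 0.32 for Tpm1, 0.15 for Tmod1 and 0.35 for Lmod2, and 0.0003 for Myl3 and 0.35 for Ttn. They were 0.24 for Actn2, 0.39 for Csrp3, 0.13 for Myoz2, 0.11 for Myot, 0.37 for Nebl, 0.59 for Smpx and 0.57 for Des. They were 0.14 for Myom1, 0.092 for Obsl1, 0.048 for Trim63, 0.023 for Trim54 and 0.40 for Trim55. By limma on TPM they were 0.18 for Smpx and 0.13 for Des with either pseudocount, and 0.039 and 0.042 for Trim55. Within pool KIUC033 they were 0.011 for Ttn and 0.12 for Nebl. The scaled difference between times was 0.30 for Ttn, the scaled value with cGas 0.046 for Mybpc3 and that without cGas 0.038 for Trim63. The cause was not tested. Groups of 2 and 3 libraries at 11 days and of 4 in the cross limit what could be called.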
